A study of Mus musculus with 4 samples.

Results

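The genes described are 10 mouse ABCA lipid transporters, Abca1, Abca2, Abca3, Abca5, Abca7, Abca8a, Abca8b, Abca9, Abca12 and Abca13. They were taken by gene name from the 38697 genes of the authors' comparison, and they were chosen by its log2 fold changes and mean counts: abundant Abca7 was lower in KO cells while relatives of few reads were higher. The values of that comparison are therefore given as a description, and no test of the members is drawn from them. The table holds 16 ABCA genes, and the other 6 are described beside the members. RNA came from group 2 innate lymphoid cells (ILC2s), tissue lymphocytes that make type 2 cytokines, sorted from lungs of C57BL/6 mice treated with bleomycin, which injures the lung. KO mice were R5/+ Nrp1f/f and WT mice were R5/+, with 2 samples per genotype and 3 to 4 mice pooled in each. R5 is an allele of Il5 that carries a reporter and Cre recombinase, so both genotypes carry it, and Cre can act on the floxed Nrp1 gene in cells that have used Il5. The labels used here give neither ages nor the dose of bleomycin. The comparison asks which transcripts differ when Nrp1, the gene of the co-receptor neuropilin-1, is floxed in mice that carry this Cre. Nrp1 transcript was still present in KO samples, with implied means of 2313 normalized counts in KO and 5229 in WT, or 0.442 times the WT level in the authors' deposited table.

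ABCA proteins are large single-chain ATP-binding cassette transporters. Each has a pair of membrane domains and a pair of nucleotide-binding domains that bind and split ATP, and many members move phospholipids, cholesterol or other lipids across or out of membranes. Abca1 loads cholesterol and phospholipid onto apolipoprotein A-I to form HDL, and is induced by the sterol-sensing LXR receptors. Abca7, its closest relative, exports phospholipid, takes part in phagocytosis, and in cultured cells is induced by SREBP2 when sterol is scarce. Abca3 fills the surfactant-storing lamellar bodies of alveolar type 2 cells, and Abca12 the lipid granules of skin keratinocytes.

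All 16 ABCA open reading frames in GENCODE M21 transcripts encode 2 copies of Walker A, the phosphate-binding loop. The DNA for the first copy, 24 bases per gene on the coding strand, is shown for the 10 members because it is the element that the family shares. Capitals mark the codons of the first glycine, the last glycine and the lysine of the motif.
Abca7: GGTcacaacggggctGGCAAGaca
Abca2: GGCcacaacggggccGGCAAGacc
Abca1: GGCcacaatggagcaGGGAAGacc
Abca3: GGCcacaatggtgctGGGAAGacc
Abca5: GGCcacagtggaacaGGAAAAagc
Abca8a: GGTcacagtggagctGGGAAAtca
Abca8b: GGTcacagtggagctGGGAAAtca
Abca9: GGTcacagtggagctGGGAAAacc
Abca12: GGGccaaacggagctGGCAAAacc
Abca13: GGGaccaacggtgcaGGGAAAacc
Abca8a and Abca8b were identical over these bases. By global alignment of the translated frames, Abca8a and Abca8b were the most alike of all pairs, at 66.9% identity, and Abca8b and Abca9 shared 63.4%. Abca7 and Abca1 shared 54.1% and Abca12 and Abca13 42.2%. In GRCm38 coordinates Abca2 spans chromosome 2, 25428703 to 25448540 (+ strand), Abca9 chromosome 11, 110100749 to 110168196 (- strand), Abca12 chromosome 1, 71242276 to 71414910 (- strand) and Abca13 chromosome 11, 9191942 to 9684259 (+ strand). The encoded proteins ran from 1620 residues in Abca8a and Abca8b to 5034 in Abca13, with 2167 in Abca7.

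Promoters of the pair of abundant members and of the pair with the highest log2 values are printed because they differ in CpG content. Each window holds 250 bases before and 50 after the RefSeq start, 5′ to 3′ on the gene's strand, in build GRCm38.p6. Capitals mark CpG dinucleotides. The windows are chr10:79996244-79996543 on the + strand for Abca7, chr2:25428349-25428648 on the + strand for Abca2, chr11:110168104-110168403 on the - strand for Abca9 and chr1:71414861-71415160 on the - strand for Abca12.
Abca7 promoter: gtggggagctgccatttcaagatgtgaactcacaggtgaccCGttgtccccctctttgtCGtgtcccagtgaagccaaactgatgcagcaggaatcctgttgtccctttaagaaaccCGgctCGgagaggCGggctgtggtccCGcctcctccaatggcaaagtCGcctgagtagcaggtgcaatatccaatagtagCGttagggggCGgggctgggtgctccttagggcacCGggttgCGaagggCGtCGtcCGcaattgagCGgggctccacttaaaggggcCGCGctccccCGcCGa
Abca2 promoter: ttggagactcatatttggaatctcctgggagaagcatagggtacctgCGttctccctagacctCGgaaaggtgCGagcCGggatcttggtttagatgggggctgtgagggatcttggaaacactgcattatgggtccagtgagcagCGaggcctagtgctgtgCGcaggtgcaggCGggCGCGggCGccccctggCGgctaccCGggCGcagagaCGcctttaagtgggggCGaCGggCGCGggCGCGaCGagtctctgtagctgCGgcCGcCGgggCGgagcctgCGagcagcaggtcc
Abca9 promoter: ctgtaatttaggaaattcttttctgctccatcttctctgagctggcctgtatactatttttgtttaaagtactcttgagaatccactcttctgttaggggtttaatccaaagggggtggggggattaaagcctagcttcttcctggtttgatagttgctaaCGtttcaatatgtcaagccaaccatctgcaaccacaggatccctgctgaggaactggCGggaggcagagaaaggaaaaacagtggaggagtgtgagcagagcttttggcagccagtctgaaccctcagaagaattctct
Abca12 promoter: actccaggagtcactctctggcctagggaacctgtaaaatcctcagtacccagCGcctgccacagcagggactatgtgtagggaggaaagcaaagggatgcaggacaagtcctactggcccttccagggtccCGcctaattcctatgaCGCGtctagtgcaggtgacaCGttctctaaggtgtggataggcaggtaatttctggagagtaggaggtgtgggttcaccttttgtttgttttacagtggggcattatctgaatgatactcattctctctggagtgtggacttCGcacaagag
The Abca7 window held 19 CpGs and that of Abca2 held 26, against 2 for Abca9 and 6 for Abca12.

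Abca7 and Abca2 made up most of the ABCA transcript pool in these cells. In the authors' deposited table the mean normalized count over the libraries was 1777 for Abca7 and 1839 for Abca2, together 80.0% of the sum over the 10 members. Abca2 is an endosomal and lysosomal transporter best known from brain myelin-forming cells. Abca1 followed at 344, Abca3 at 221 and Abca5, an endosomal and lysosomal member of less certain cargo, at 110 in the authors' deposited table. The other 5 members, Abca13, Abca8a, Abca12, Abca9 and Abca8b, lay between 40.2 and 54.4 in the authors' deposited table. Divided by exonic length, which makes levels comparable between genes, Abca7 stood at 263 normalized counts per kb and Abca2 at 220, and the next member, Abca1, at 33.2. Abca3 stood at 23.6, Abca5 at 9.59, Abca8a at 8.003, Abca8b at 5.41, Abca9 at 4.998, Abca12 at 3.12 and Abca13 at 2.76 per kb. Abca13 ranked last per kb but ahead of 4 members by count, and its 19.7 kb of exon is the longest of the 10. No error can be attached to these levels and neighbours in the order could not be tested, since values per library were not used. For scale, Nrp1 had a mean normalized count of 3771 in the authors' deposited table.

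**Figure D1:**
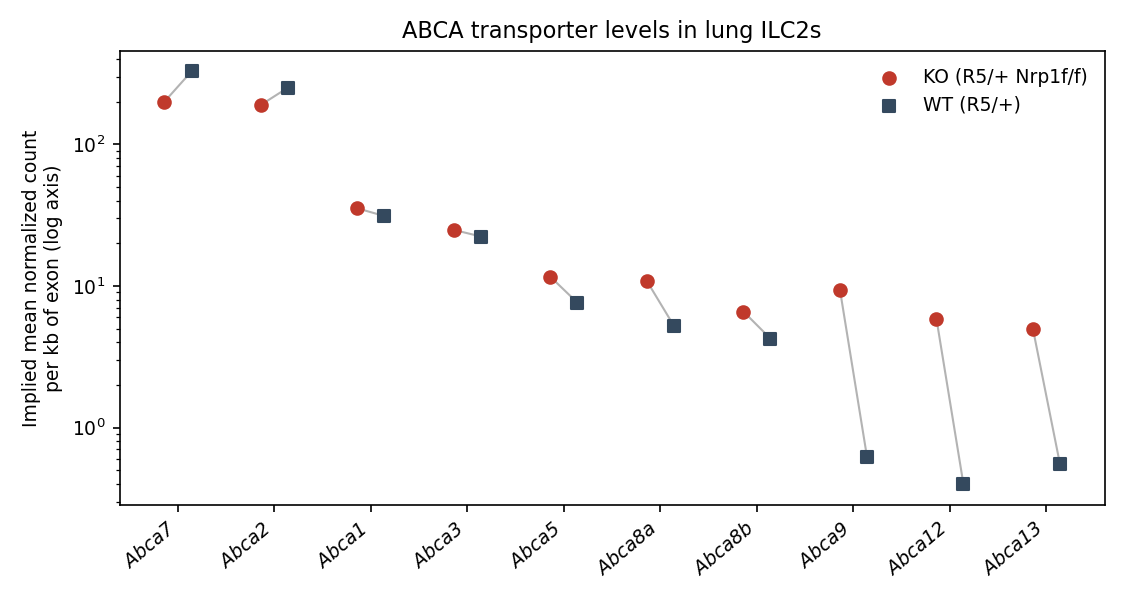
Mean normalized count per kb of exon (log axis) that the deposited mean and fold change imply for each genotype, KO as circles and WT as squares, for the 10 ABCA members in order of level per kb. Abca7 and Abca2 lie between 189.8 and 199.8 in KO and between 251 and 327 in WT, while Abca9, Abca12 and Abca13 lie between 4.96 and 9.37 in KO and between 0.397 and 0.623 in WT.

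Abca7 was the member that was lower in KO by the authors' call. The table's mean and fold change imply 1349 normalized counts in KO cells and 2206 in WT cells if both genotypes weigh equally. In the authors' deposited table the log2 fold change, with its sign turned so that positive means higher in KO, was -0.71 ± 0.19 (SE), which is 0.612 times the WT level. Its abundant companion Abca2 stood at -0.40 ± 0.19 (SE) in the authors' deposited table and did not pass the authors' test, with implied means of 1584 normalized counts in KO and 2095 in WT. Both signs were kept when log2 values were centred on abundant genes, at -0.46 for Abca7 and -0.15 for Abca2, but the call of Abca7 was lost, with an adjusted p of 0.195. It was also lost with the running median of log2 over abundance subtracted (adjusted p = 0.772) and with no filter on low values (adjusted p = 0.0773), all from the statistics of the authors' deposited table. That centring adds 0.25 to every log2 value, because genes with a mean normalized count of at least 1000 had a median of -0.25.

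The sterol exporter Abca1 and the surfactant transporter Abca3 were close to even between genotypes as deposited. Abca1 stood at 0.18 ± 0.33 (SE) in the authors' deposited table, with implied means of 365 normalized counts in KO and 322 in WT. Abca3 stood at 0.15 ± 0.39 (SE) in the authors' deposited table, with implied means of 233 in KO and 209 in WT. For each of them the deposited value was smaller than its error, which does not show that the levels were equal. After centring Abca1 stood at 0.43 and Abca3 at 0.41, and with the running median subtracted at 0.33 and 0.25. Neither was called in these settings. Abca5 stood at 0.61 ± 0.54 (SE) in the authors' deposited table, with implied means of 132 in KO and 86.9 in WT.

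Of the low-count members, 3 had wide differences that passed the authors' test, and Abca8a and Abca8b had smaller ones that did not. A difference between these groups was not tested. Abca9, which belongs to the Abca6-like subgroup with Abca8a and Abca8b, had implied means of 75.4 normalized counts in KO and 5.01 in WT, and stood at 3.91 ± 1.02 (SE) in the authors' deposited table. Abca12, the keratinocyte lipid transporter, had implied means of 86.6 in KO and 5.88 in WT, and stood at 3.88 ± 1.05 (SE) in the authors' deposited table. Abca13, a very large transporter of uncertain cargo, had implied means of 97.9 in KO and 10.9 in WT, and stood at 3.17 ± 0.83 (SE) in the authors' deposited table. These 3 passed the authors' test as higher. With no filter on low values their adjusted p ran from 0.0773 to 0.0942 and with the running median subtracted from 0.222 to 0.233, which ended the calls, and that of Abca12 was 0.0551 over protein-coding genes alone. Abca8a stood at 1.05 ± 0.82 (SE) and Abca8b at 0.64 ± 0.99 (SE) in the authors' deposited table, and neither passed. Their implied means were 67.7 in KO and 32.7 in WT for Abca8a, and 48.9 in KO and 31.5 in WT for Abca8b. At such counts log2 values are fitted quantities and depend on few reads in WT.

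**Figure D2:**
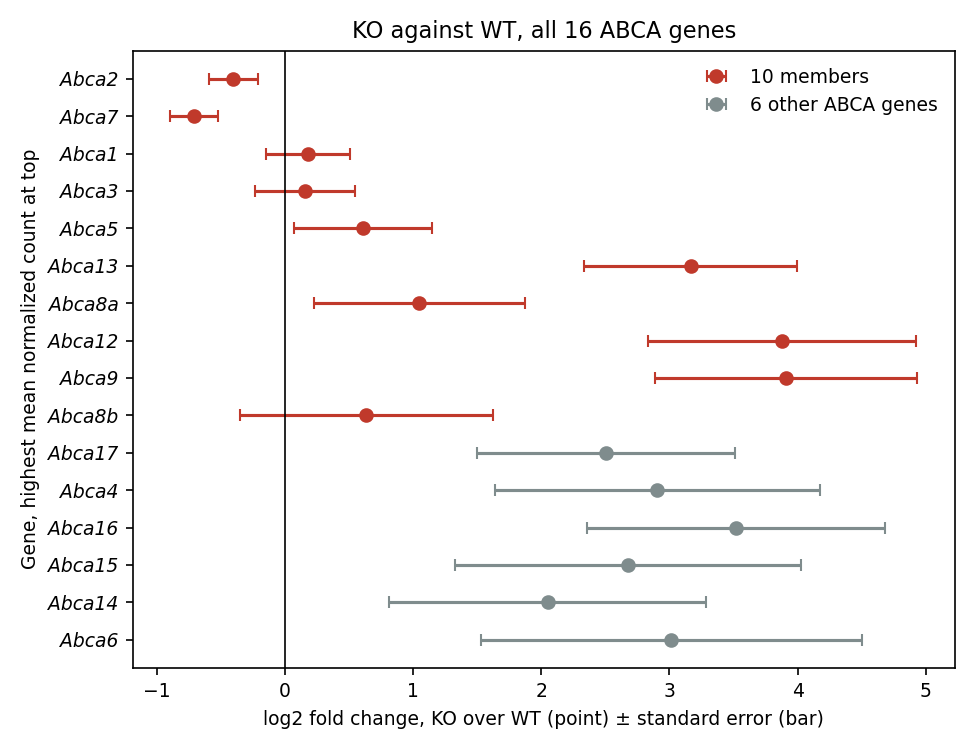
log2 fold change of KO over WT (points) with its standard error (bars) in the authors' deposited table for the 16 ABCA genes, highest mean normalized count at the top. Abca2 and Abca7 lie left of 0 at -0.40 and -0.71, and the other 14 lie to the right, with wider errors at lower counts.

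By the authors' adjusted p under 0.05, 3 of the 10 members were higher and 1 was lower in KO, where 0.453% of the 19193 tested genes were called higher and 0.0990% lower. These calls belong to the contrast from which the members were chosen. Of genes with a mean normalized count of 20 to 50, the class of Abca9 and Abca12, 1.54% were called higher. The share called higher was 0.973% at 50 to 100, the class of Abca13. At 1000 to 3000, the class of Abca7, 0.171% were called lower. After centring on abundant genes the counts of members were 3 higher and 0 lower, with 1.17% of all tested genes called higher and 0.0104% lower. After the running median of log2 over abundance was subtracted the counts were 0 and 0, with 0.0990% of all tested genes called higher and 0.0104% lower. Over the whole set of 10, the summed implied normalized counts were 4040 in KO and 5004 in WT. Without Abca7 and Abca2 the sums were 1107 in KO and 704 in WT. Over all tested genes the sums were also lower in KO, at 12127157 in KO and 13735594 in WT. With the shift of centring on abundant genes applied to KO, the members summed to 4809 in KO, beside the same 5004 in WT. The same shift brought the sum over all tested genes to 14436549 in KO, above the 13735594 in WT.

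The other 6 ABCA genes also had positive log2 values, and none of them passed the authors' test, although 5 were higher at an unadjusted p under 0.05. At that unadjusted threshold 9.62% of the 19193 tested genes were higher in KO and 3.95% lower. Both shares cover genes of every abundance. Abca16 stood at 3.52 ± 1.16 (SE) and Abca6 at 3.01 ± 1.49 (SE) in the authors' deposited table. Abca4, which moves retinoid conjugates in photoreceptors, stood at 2.90 ± 1.27 (SE) in the authors' deposited table. Abca15 stood at 2.68 ± 1.35 (SE), Abca17 at 2.51 ± 1.00 (SE) and Abca14 at 2.05 ± 1.24 (SE) in the authors' deposited table, and these 3 with Abca16 are best known from testis. Their mean normalized counts ran from 19.0 to 32.04 in the authors' deposited table, below every member. Their median log2 value was 2.79, that of the 10 members 0.62 and that of all tested genes 0.08.

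The 2 members with negative values were the most abundant ones, and genes at large divided by abundance in the same way. Of all genes in the authors' deposited table, 93.5% of the 1753 genes with a mean normalized count of 1000 to 3000 had a negative log2 value, and 79.3% of the 2724 genes at 20 to 50 had a positive one. Abca7 and Abca2 lie in the first of these classes, whose median was -0.25 with quartiles of -0.34 and -0.15. Abca9, Abca12 and Abca8b lie in the second, with a median of 0.78 and quartiles of 0.11 and 1.78. Abca8b was thus below its class median, while Abca9 and Abca12 were above the upper quartile. Set against the running median of genes of like abundance, Abca8b was higher by 0.15. Abca13 and Abca8a lie in the class of 50 to 100, with a median of 0.23 and an upper quartile of 0.66. Abca1, Abca3 and Abca5 lie in the class of 100 to 500, with a median of -0.10 and an upper quartile of 0.12, which all 3 exceeded. With the running median subtracted the signs of all 10 members were kept, at -0.45 for Abca7, 3.43 for Abca9, 3.50 for Abca12 and 2.81 for Abca13. The standard errors of Abca9 and Abca12 were 1.02 and 1.05 in the authors' deposited table, beside a class median of 0.996. That of Abca13 was 0.83 in the authors' deposited table, beside 0.65, and that of Abca7 was 0.19, beside 0.20. Across the 16 ABCA genes, Spearman's rank correlation between log2 value and mean normalized count was -0.63, and across all tested genes -0.66, as a description of genes that share the same libraries.

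**Figure D3:**
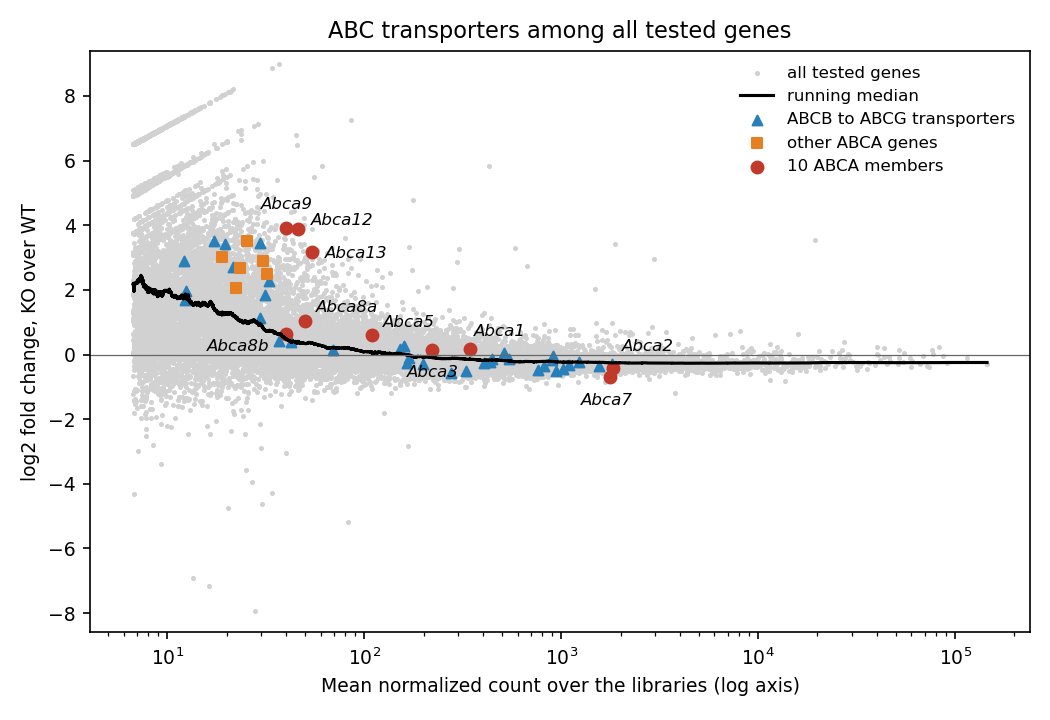
log2 fold change of KO over WT against mean normalized count (log axis) for all 19193 tested genes in grey, with the running median of 501 genes as a line, the 10 ABCA members as labelled circles, the other 6 ABCA genes as squares and 35 transporters of the ABCB to ABCG classes as triangles. The line falls below 0 on the right, where Abca7 and Abca2 lie, and ABC genes of few reads lie above 0 on the left.

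Transporters of the other ABC classes showed the same split by abundance. Of 37 ABCB to ABCG genes, 35 were tested and 0 passed the authors' test, while at an unadjusted p under 0.05 there were 5 higher and 3 lower, beside 9.62% and 3.95% of all tested genes. All 13 with a mean normalized count under 100 had a positive log2 value, with a median of 1.97, against 3 of 22 with a count of at least 100, with a median of -0.26. After centring, 10 of those 22 had a positive value. Abce1, a ribosome-recycling factor and the most abundant of the 37, stood at -0.29 ± 0.19 (SE) in the authors' deposited table, and Abcf1, a translation factor, at -0.34 ± 0.18 (SE). The peptide transporter chains Tap2 and Tap1 stood at -0.23 ± 0.22 (SE) and -0.32 ± 0.24 (SE) in the authors' deposited table. Abcg1, a partner of Abca1 in cholesterol efflux, stood at -0.03 ± 0.25 (SE) in the authors' deposited table, and its sign turned positive after centring. No test of a difference between the ABCA genes and these classes was made.

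The genes around Abca7 were examined because they share its locus. Abca7 (ENSMUSG00000035722) spans chromosome 10, 79996494 to 80015572 on the + strand in GRCm38, the build of mm10, and none of its exonic bases is shared with another annotated gene. Of 10 annotated genes within 50 kb, 8 were tested, 8 had a negative log2 value and 0 passed the authors' test, with 2 lower at an unadjusted p under 0.05, beside 3.95% of all tested genes. That share covers genes of every abundance, while the 2 lower genes were the abundant Cnn2 and Arhgap45. Cnn2, the calponin gene that ends 432 bp before Abca7, stood at -0.46 ± 0.16 (SE) in the authors' deposited table at a mean normalized count of 5708. Arhgap45, which lies 1081 bp beyond Abca7, stood at -0.46 ± 0.15 (SE) in the authors' deposited table at a mean normalized count of 12575. All genes with a mean normalized count of at least 1000, a class that holds Cnn2 and Arhgap45, had a median log2 value of -0.25. The remaining tested neighbours, Arid3a, Wdr18, Tmem259, Polr2e, Gpx4 and Sbno2, ranged from -0.46 to -0.04 in the authors' deposited table. After centring, Tmem259 and Sbno2 turned positive, at 0.21 and 0.06.

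Abca8b, Abca8a, Abca9, Abca6 and Abca5 lie side by side on chromosome 11, all on the - strand, with gaps of 4.77 to 29.8 kb. In the authors' deposited table Abca8b stood at 0.64 ± 0.99 (SE), Abca8a at 1.05 ± 0.82 (SE) and Abca9 at 3.91 ± 1.02 (SE). Abca6 stood at 3.01 ± 1.49 (SE) and Abca5 at 0.61 ± 0.54 (SE) in the authors' deposited table. Abca9 and Abca6 had the highest values, but only Abca9 passed the authors' test. The order along the row was not tested, and values of this comparison had served to choose the members. Exonic 50-base stretches shared with other genes were rare, at 1.64% of those of Abca8a, 2.45% of Abca8b and 0.162% of Abca9. Abca7, Abca2, Abca1, Abca5 and Abca13 shared none and Abca12 0.461%. Abca3 shared 10.1%, mostly with the overlapping gene D330041H03Rik, so its count is less certain where strand was not recorded. Abca17 and Abca3 start 881 bp apart on opposite strands of chromosome 17, and stood at 2.51 and 0.15 in the authors' deposited table.

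Among the 10 members, promoter CpG content separated those with a mean normalized count over 100 from those under it. The windows of Abca7, Abca2, Abca1, Abca3 and Abca5 held 19 to 40 CpGs, and those of Abca13, Abca8a, Abca12, Abca9 and Abca8b held 2 to 10. The median over 32851 RefSeq windows was 7. The other ABCA genes with a window did not follow that split, with 9 to 22 CpGs in 5 genes that were all less abundant. The GC box GGGCGG, read on both strands, was in all 5 abundant members and in Abca8b, and in 35.7% of all windows. TCACNCCAC, letters of a sterol-response element bound by SREBP, occurred in Abca3 alone among the members and in 1.24% of all windows. The E-box CACGTG was in Abca1, Abca8a and Abca8b and in 7.15% of all windows, and TATAAA in Abca1 and in 13.6%. A match is only a match of letters in this window.

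**Figure D4:**
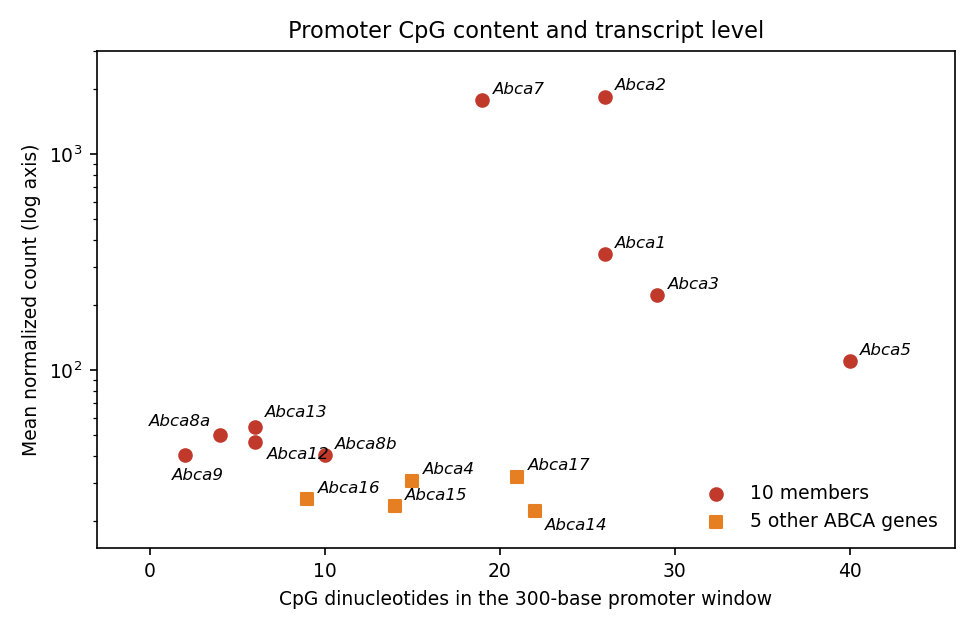
Mean normalized count in the authors' deposited table (log axis) against the number of CpG dinucleotides in the 300-base promoter window, for the 10 members as circles and 5 other ABCA genes as squares. The 5 members above a count of 100 hold 19 to 40 CpGs and the 5 below it hold 2 to 10, while the squares lie low at 9 to 22.

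Genes that work beside these transporters were read as lists. Of 12 SREBP sterol-sensing genes, 11 were tested, and Srebf2, the SREBP2 gene, was the 1 that passed. In the authors' deposited table Srebf2 was lower in KO at -0.66 ± 0.17 (SE), with an adjusted p of 0.0345. Of all tested genes 0.0990% were called lower and 0.453% higher. The call of Srebf2 was lost with no filter on low values, with centring and with the running median removed. At an unadjusted p under 0.05 the list had 0 higher and 3 lower, beside 9.62% and 3.95% of all tested genes. These shares cover genes of every abundance, while the list had a median of 630 in mean normalized count. Of the 11, 8 had a negative log2 value, with a median of -0.33 as deposited and -0.08 after centring. In cholesterol efflux and LXR signalling 18 of 20 were tested and 0 passed the authors' test, with 0 higher and 1 lower at an unadjusted p under 0.05, where 9.62% and 3.95% of all tested genes lay. The LXR genes Nr1h2 and Nr1h3 stood at -0.26 ± 0.21 (SE) and 0.89 ± 0.72 (SE) in the authors' deposited table. Apoe, an acceptor of exported lipid, stood at 0.75 ± 0.70 (SE) in the authors' deposited table. Soat1, which esterifies cholesterol and was the most abundant of the list, stood at -0.31 ± 0.17 (SE) in the authors' deposited table. The efflux list had a median of -0.05 as deposited and 0.20 after centring.

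Phospholipid flippases and scramblases had 18 of 18 genes tested and 0 past the authors' test, with 1 higher and 2 lower at an unadjusted p under 0.05, where 9.62% and 3.95% of all tested genes lay. Their median was -0.12, which turned to 0.13 after centring. Tmem30a, the shared flippase subunit, stood at -0.34 ± 0.17 (SE) in the authors' deposited table, and the scramblase gene Plscr1 at -0.39 ± 0.19 (SE). Skin ceramide barrier genes, the companions of Abca12 in keratinocytes, had 7 of 10 tested and 0 past the authors' test, with 2 higher and 0 lower at an unadjusted p under 0.05, against those same shares of all tested genes. Their median was 0.36. In the authors' deposited table Ugcg stood at 0.16 ± 0.23 (SE) and Abhd5 at 0.10 ± 0.43 (SE). Their mean normalized counts, 706 and 153, were the highest of the list. Sult2b1 stood at -0.08 ± 0.94 (SE), Elovl4 at 0.36 ± 1.17 (SE) and Tgm1 at 1.95 ± 1.90 (SE) in the authors' deposited table. The highest values were those of Aloxe3 and Cers3, at 2.87 ± 1.33 (SE) and 3.45 ± 1.61 (SE). Their mean normalized counts were 18.7 and 14.1 in the authors' deposited table. The median over all tested genes was 0.08 as deposited and 0.33 after centring.

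**Figure D5:**
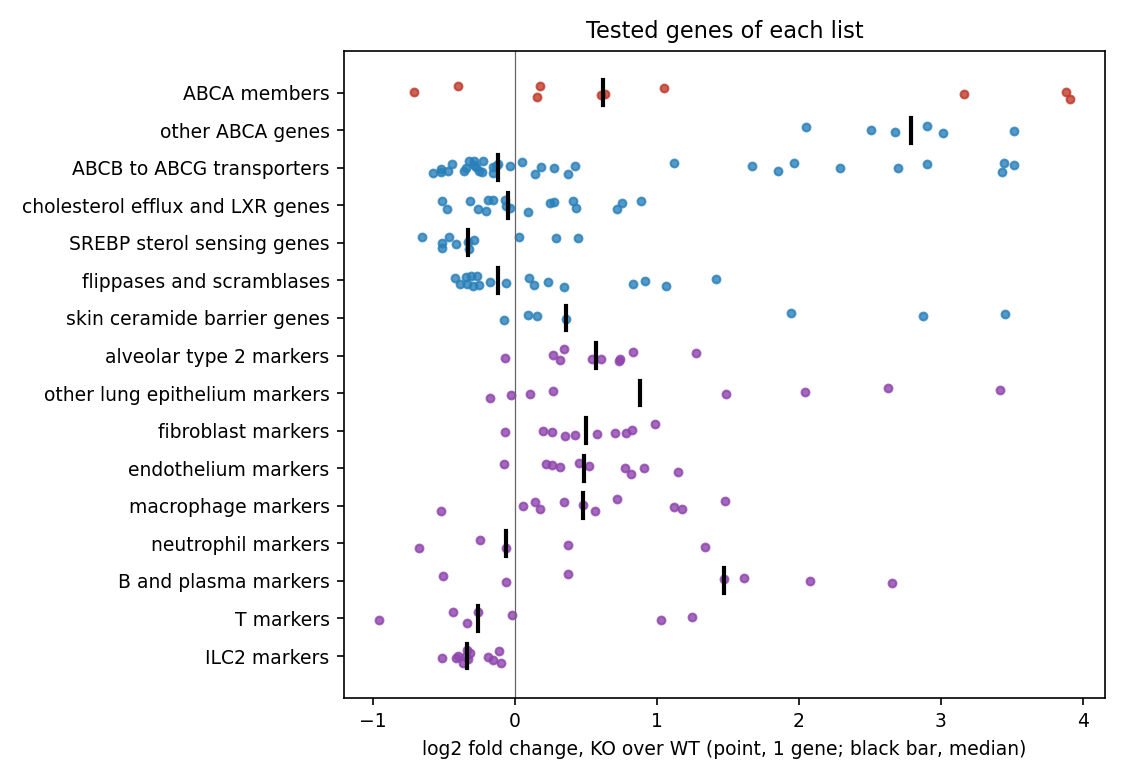
log2 fold change of KO over WT in the authors' deposited table for each tested gene (points) of the ABCA members, the transporter and lipid lists and the cell type marker lists, with the median of each list as a black bar. The bar lies at 2.79 for the other ABCA genes, at -0.33 for the sterol-sensing genes and at 0.57 for alveolar type 2 markers.

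Markers of the cells in which some members are best known were also present. All 10 alveolar type 2 markers were tested and 9 had a positive log2 value, with a median of 0.57 and summed implied normalized counts of 12872 in KO and 8454 in WT. Sftpc, the surfactant protein C gene, had a mean normalized count of 6032 in the authors' deposited table, beside 221 for Abca3. Its implied means, 7277 in KO and 4787 in WT, made up most of these sums. Its log2 value, 0.60 ± 1.44 (SE) in the authors' deposited table, was smaller than its error. Fibroblast markers were positive in 9 of 10, with sums of 8438 in KO and 5414 in WT, and endothelial markers in 9 of 10, with sums of 4358 in KO and 3356 in WT. The most abundant fibroblast markers, Col3a1 and Col1a1, stood at 0.70 ± 1.22 (SE) and 0.99 ± 1.31 (SE) in the authors' deposited table. Macrophage markers were positive in 10 of 11, with sums of 11137 in KO and 9862 in WT. Lyz2 made up most of the macrophage sums, at 9431 in KO and 8532 in WT. It stood at 0.14 ± 0.20 (SE) in the authors' deposited table. Other lung epithelial markers were positive in 6 of 8 tested, with a median of 0.88 and sums of 4686 in KO and 2382 in WT, while the basal-cell keratin genes Krt5 and Krt15 have no row in the table. In the authors' deposited table the ciliary dynein gene Dnah5 stood at 3.42 ± 1.05 (SE; adjusted p = 0.0852) at a mean normalized count of 49.5, and the club cell gene Cyp2f2 at 2.63 ± 0.73 (SE; adjusted p = 0.0540). Scgb1a1, the club cell secretory protein gene, stood at 2.04 ± 1.00 (SE) in the authors' deposited table. Its implied means, 2391 in KO and 581 in WT, made up much of the sums of that list. The rest of the list was less raised or even in the authors' deposited table. Scgb3a2 stood at 1.48, Ager at 0.27, Epcam at 0.11, Cdh1 at -0.03 and Hopx at -0.18. None of these 5 lists had a gene past the authors' test. At an unadjusted p under 0.05 there were 0 higher of 10 alveolar type 2 markers, 0 of 10 fibroblast, 3 of 10 endothelial, 1 of 11 macrophage and 3 of 8 other epithelial markers, beside 9.62% of all tested genes. Neutrophil markers were positive in 2 of 5 tested, with sums of 126 in KO and 132 in WT, and B and plasma cell markers in 5 of 7, with sums of 2949 in KO and 3508 in WT. Ighm made up most of the latter sums, with implied means of 2000 in KO and 2842 in WT. In the authors' deposited table Cd3g was the 1 T cell marker that passed, lower at -0.96 ± 0.24 (SE; adjusted p = 0.0292). Its value was -0.71 after centring and -0.72 with the running median subtracted. The other CD3 chains, Cd3e and Cd3d, stood at -0.44 ± 0.71 (SE) and -0.02 ± 1.15 (SE) in the authors' deposited table. Both were smaller than their errors, at mean normalized counts of 51.8 and 18.1, beside 963 for Cd3g. Of all tested genes 0.0990% were called lower. T cell markers were positive in 2 of 7 tested, with sums of 3090 in KO and 4311 in WT. Trbc2 and Cd3g made up most of these sums, at 2230 and 654 in KO and 2820 and 1271 in WT. At an unadjusted p under 0.05, 0 T cell markers were higher and 1 lower, and 1 B and plasma cell marker was higher and 1 lower. The part of other cells in the values of Abca3, Abca8a, Abca8b, Abca9, Abca12 and Abca13 was not tested. All 12 ILC2 markers were tested and had a negative value, of which 4 turned positive after centring. None passed the authors' test, and 6 were lower at an unadjusted p under 0.05, beside 3.95% of all tested genes. That share covers genes of every abundance, while the ILC2 markers had a median of 12783 in mean normalized count. Their median log2 value was -0.33, beside -0.25 for all genes with a mean normalized count of at least 1000, and -0.08 after centring. Gata3 and Rora were among the most abundant genes named, at 39152 and 41644 in the authors' deposited table. In bulk RNA fewer cells of a type and less RNA per cell cannot be told apart.

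The gene test was that of the authors, two-sided with adjustment over 19193 genes, and in the authors' deposited table Nrp1 itself was lower in KO at -1.18 ± 0.21 (SE), with an adjusted p of 1.27e-04 there. Every direction rests on the table's name, which puts WT before KO. Each p-value sets a difference against its error, with 2 pools per genotype by the labels.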

How the data were processed

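RNA of sorted lung ILC2s was sequenced in 2 KO and 2 WT samples, each a pool of 3 to 4 mice, with full-length SMART-Seq HT cDNA per the labels' protocols. HISAT2, Cufflinks and mm10 are named in the submitters' processing notes, with no role; no source used here names the counter or annotation. Per the file headers, the authors deposited for each gene, under DESeq2 headings, baseMean (the signal of a gene as its mean normalized count), a log2 fold change and its log2 error, the test's score, and p-values before and after adjustment. A further 8 columns hold values per library under codes found in no sample label. These were seen when the file was opened but were given to no sample and used nowhere, so depth, values per sample and a refit were not analysed here.

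A count model, planned in case columns per library matched labels, could therefore not be fitted, and the authors' test was used. Signs were turned so that positive means higher in KO. Of 38697 genes, 19193 have an adjusted p, all with a baseMean of at least 6.71. Genotype means were implied from baseMean and fold change with equal weights. Alternatives changed the genes adjusted for, the threshold, or the scaling: centring on the median of genes at a baseMean of 1000 or more, or subtracting a running median over 501 genes ranked by baseMean. Gene positions and lengths of exon were read from GENCODE M21, where 38388 identifiers had a record, and promoters from RefSeq (GRCm38.p6), where 15 of 16 ABCA genes matched, all 10 members among them. Computations used Python 3.11.15 with Biopython 1.88 and SciPy 1.17.1.

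Named genes were the members, all other ABCA genes, genes within 50 kb of Abca7, Nrp1 and, per list, those past the test and up to 4 of the most abundant, with a few others named after their values were seen. The members and lists were chosen with earlier results of these data known.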

Additional observations from a re-analysis of the deposited data

How the results depend on the processing

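Signs of the 10 members and of Nrp1 were kept in every setting run. Only centring and the running median changed log2 values, so in the other settings no sign could turn. The looser threshold of 0.1 could not lose a call. Of 63 comparisons of these 11 genes with an alternative, 53 also kept their side of the threshold and 10 lost the authors' call. All of the losses were of Abca7, Abca9, Abca12 and Abca13. Members called higher and lower numbered 3 and 1 as deposited, 0 and 0 with no filter on low values, and 0 and 0 with the running median removed. With a mean normalized count of at least 50, where Abca9, Abca12 and Abca8b drop out, 1 was higher, and with centring 0 were lower. Over all genes 87 were higher and 19 lower as deposited. With no filter these were 21 and 2, with centring 225 and 2, with the running median removed 19 and 2, and at an adjusted p under 0.1 they were 266 and 40. A count of at least 50 gave 22 higher and protein-coding genes alone 39 higher. In the transporter and lipid lists Srebf2, the 1 gene called lower, was not called with no filter, with centring or with the running median removed, which left 0. With no division by exonic length 7 of the 10 members changed rank. Filters alter how many genes the adjustment covers, and centring shifts every log2 value; beyond that the cause was not tested. No paired analysis was possible because the columns of values per library match no sample label. For the same reason fits without 1 sample, with another normalization and without a count filter were not run. With 2 pools per genotype and mean normalized counts near 50, the standard errors of Abca9, Abca12 and Abca13 were about 1 on the log2 scale, which limits how firmly these values can be read.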
